A study of Mus musculus with 24 samples.

Results

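The genes of the apolipoproteins and of the assembly of very low density lipoprotein (VLDL) were followed in the livers of 24 mice. They were chosen by name, as the 10 genes Apob, Mttp, Apoa1, Apoa2, Apoa4, Apoa5, Apoc2, Apoc3, Apoe and Lipc, and every probe whose gene name on the array was exactly one of these was taken. This gave 18 of the 56605 probes on the array. Of them, 17 passed the filter on dim probes, by which a probe had to be flagged well above background in 75% or more of the livers of some group, and were tested together with all 30003 probes that passed.

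Each array held the liver of 1 male C57Bl6J mouse of the third generation of a lineage. The reference group (STD_Cont, n = 9) came from the lineage labelled Control fatty acid, bred on a sunflower oil rich in oleic acid. It received a standard low-fat diet. The HFoleic group (HFD_Cont, n = 8) came from the same lineage and received an obesogenic diet rich in fat and sucrose. The HFepa group (HFD_O3, n = 7) received that same obesogenic diet but came from the lineage labelled n-3PUFA, bred on a fish oil rich in eicosapentaenoic acid (EPA). HFoleic vs. reference therefore asks for the effect of the diet within the control lineage, and HFepa vs. HFoleic for the effect of the lineage under the obesogenic diet. HFepa vs. reference differs in both. No mice of the n-3PUFA lineage on the low-fat diet were on the arrays, so diet and lineage cannot be told apart in that comparison. It also shares the 9 reference arrays with HFoleic vs. reference, and the values of both are given side by side only. All mice were killed during fasting, a state in which genes of lipid handling in liver are known to be regulated.

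VLDL is the particle in which hepatocytes export triglycerides. Apolipoprotein B, encoded by Apob, is its structural protein, and the microsomal triglyceride transfer protein, encoded by Mttp, loads lipid onto it in the endoplasmic reticulum. The exchangeable apolipoproteins move between particles in plasma and act on lipolysis and uptake: apolipoproteins C-II (Apoc2) and A-V (Apoa5) favour lipoprotein lipase, apolipoprotein C-III (Apoc3) restrains it, apolipoprotein E (Apoe) is the ligand for receptor uptake, and A-I (Apoa1) and A-II (Apoa2) build high density lipoprotein (HDL). Hepatic lipase, encoded by Lipc, hydrolyses lipids of remnants and HDL.

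Values are log2 signals of single probes after quantile normalization, which gives every array the same set of values. A probe was called when its p-value, adjusted by Benjamini-Hochberg over all 30003 probes tested with limma, was under 0.05. The mean of a group is given with its SD, and a fold change with its SE or its 95% confidence interval. Since a liver holds several cell types, fewer cells of a type and less RNA per cell cannot be told apart in any of these values.

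The arrays found between 28804 and 34432 of the probes well above background, and array pairs of one group correlated at r from 0.975 to 0.996. One liver stood apart. Reference replicate 5 had a median correlation of 0.976 with the other reference arrays, where the other 23 arrays reached 0.987 to 0.993 within their groups. For the brightest probes of 5 of the 10 genes (Mttp, Apoa1, Apoa4, Apoc2 and Lipc) it lay outside the range of the other 8 reference livers. The results that rest on it are given with and without it. The hepatocyte markers Alb, Ttr, Tat, Cps1 and Fgb were all above background. The log2 of their summed signals lay between 19.33 and 19.60 in the 24 livers. The brightest markers dominate this sum. Tat and Cps1, at reference means of 14.89 and 13.90, add little to it, so its narrow range does not describe them.

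Apoa5 was the only one of the 10 genes that passed the test in any comparison. Both of its probes fell in HFoleic as compared to reference (log2 fold changes -0.33 and -0.45, or 0.80-fold and 0.73-fold), and in HFepa both lay between the other groups without being called in either comparison. Apoa4 had by far the widest spread between livers, and its lower means under the obesogenic diet did not pass the test. Apob, Mttp, Apoa1, Apoa2, Apoc2, Apoc3, Apoe and Lipc were not called in any comparison.

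The apolipoprotein A-V gene was read by a pair of probes, both matched to the transcript NM_080434 and both on the plus strand of mouse chromosome 9 (build mm9, the build of the array's own annotation), at chr9:46078579-46078638 and chr9:46079431-46079490. They are shown because the only calls among the 10 genes rest on them, and they read separate stretches of the gene.
Apoa5, brightest probe: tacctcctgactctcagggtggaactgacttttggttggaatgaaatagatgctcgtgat
Apoa5, other probe: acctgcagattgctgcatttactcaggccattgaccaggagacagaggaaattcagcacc

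On the brightest probe, the reference livers had a lowest log2 signal of 16.91, a median of 17.22 and a highest of 17.36. The HFoleic livers had 16.74, 16.87 and 17.03, and the HFepa livers 16.79, 17.05 and 17.21. All 8 HFoleic livers were below the reference mean, and 5 of them were below every reference liver. The group means were 17.20 ± 0.16 (SD, n = 9) for reference, 16.87 ± 0.10 (SD, n = 8) for HFoleic and 17.04 ± 0.14 (SD, n = 7) for HFepa.

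HFoleic vs. reference gave a log2 fold change of -0.33 ± 0.07 (SE), with a 95% interval from -0.47 to -0.19 and an adjusted p of 0.00525 by limma. On the other probe the fall was deeper, with a log2 fold change of -0.45 ± 0.07 (SE) and an adjusted p of 0.000683 by limma. There the groups did not overlap: the 8 HFoleic livers ran from 14.02 to 14.49 and the 9 reference livers from 14.54 to 14.93. These were the only 2 called of the 17 tested probes of the 10 genes, against 7.23% of all probes tested. Both were called lower, against 3.19% of all, and none was called higher, against 4.05%. Non-overlapping groups were found in 1 of the 17, against 0.573% of all probes tested.

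The fall of Apoa5 did not rest on 1 slide or 1 liver. Within the 3 slides, the difference of means between HFoleic and reference on the brightest probe was -0.36, -0.34 and -0.26. Leaving out each of the 24 arrays in turn gave log2 fold changes from -0.36 to -0.31, with adjusted p-values from 0.00234 to 0.0121 by limma. Without reference replicate 5 the value was -0.31, with an adjusted p of 0.00898 by limma.

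In HFepa vs. reference the log2 fold changes of Apoa5 were -0.16 on the brightest probe, with a 95% interval from -0.31 to -0.01, and -0.19 on the other, from -0.33 to -0.04. The adjusted p-values were 0.326 and 0.220 by limma, so neither was called. On the other probe, all 7 HFepa livers lay below the reference mean, and 6 of them lay above every HFoleic liver. The exception was HFepa replicate 5, at 14.21, while the remaining 6 ran close together from 14.54 to 14.58.

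HFepa vs. HFoleic, the test of the lineage under the obesogenic diet, gave log2 fold changes of 0.17 (95% interval 0.02 to 0.32) and 0.26 (0.11 to 0.41) for the Apoa5 probes. Their adjusted p-values were 0.449 and 0.230 by limma. Across all 30003 probes no probe was called in that comparison, which is 0%, while 2910 had an unadjusted p under 0.05, so the absence of a call does not show that the lineages had the same Apoa5 level. The difference of means between HFepa and HFoleic on the brightest probe was 0.21, 0.04 and 0.28 within the 3 slides.

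**Figure D1:**
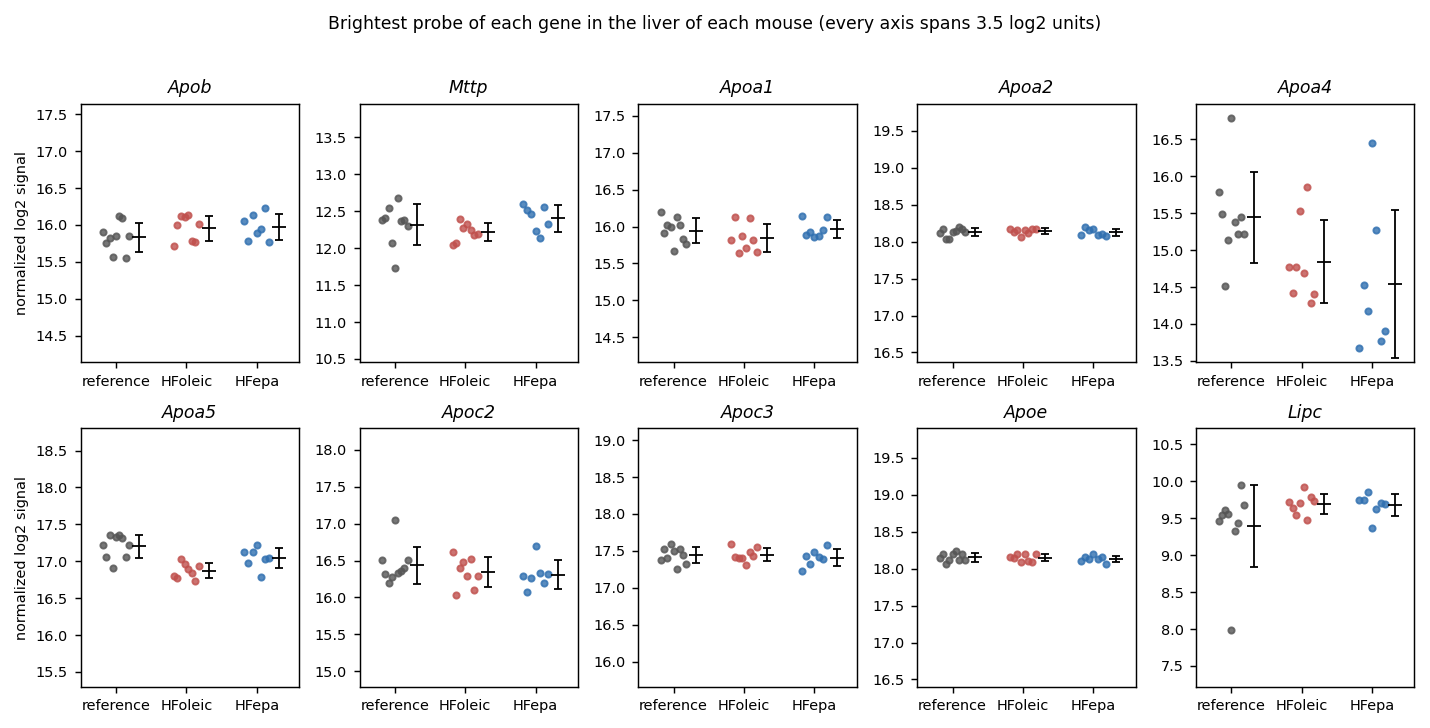
Normalized log2 signal of the brightest probe of each of the 10 genes in each liver, with the mean and SD of each group at the right of its points (reference n = 9, HFoleic n = 8, HFepa n = 7). Every vertical axis spans the same number of log2 units, so the wide spread of Apoa4, the narrow spread of Apoa2 and Apoe and the lower Apoa5 of HFoleic (means 17.20 in reference, 16.87 in HFoleic and 17.04 in HFepa) can be compared.

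The upstream sequence of Apoa5 is shown because it was the gene that was called. The window runs from 250 bases before to 50 bases after the start annotated by RefSeq (GRCm38.p6, chr9:46268358-46268657, plus strand). Capitals mark the letters CACGTG of an E-box, which begin 82 bases before the start, and the letters TATAAA of a TATA box, which begin 31 bases before it.
Apoa5 promoter: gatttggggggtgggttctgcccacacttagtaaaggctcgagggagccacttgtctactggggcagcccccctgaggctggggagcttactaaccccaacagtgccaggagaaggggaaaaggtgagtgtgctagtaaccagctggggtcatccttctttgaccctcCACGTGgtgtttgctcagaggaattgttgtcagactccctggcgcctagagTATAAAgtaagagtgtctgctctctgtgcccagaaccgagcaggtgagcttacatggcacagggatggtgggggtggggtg

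Promoter windows were at hand for 9 of the 10 genes, as 14 windows, since some genes have several annotated starts, and none was found for Apoc3. Searched on both strands, CACGTG was present in 2 of the 14 windows, both of them the overlapping windows of Apoa5, and in 7.15% of 32817 windows of all genes. TATAAA was present in 5 of the 14, of the genes Apoa2, Apoa5, Apob and Apoe, and in 13.6% of all. The recognition site AGGTCA of nuclear receptors was in 3 windows, of Apoa2, Apoc2 and Lipc, against 16.3% of all, while CAAAGTCCA, a motif of the type bound by HNF4, was in 0 of the 14 and in 0.475% of all. These matches describe letters in a window, and no binding was measured.

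Apolipoprotein A-IV, a component of chylomicrons and HDL that is made in intestine and, in mice, also in liver, was read by 1 probe at chr9:46051206-46051266 (mm9, plus strand, transcript NM_007468). Its sequence is given beside that of a probe on the opposite strand, 436 bases away, at chr9:46050711-46050770. The array names the latter Gm10680, and its values followed those of Apoa4 as described further on.
Apoa4: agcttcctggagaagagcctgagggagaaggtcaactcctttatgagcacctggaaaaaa
Gm10680: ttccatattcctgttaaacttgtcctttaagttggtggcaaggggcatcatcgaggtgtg

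The reference livers had a lowest Apoa4 log2 signal of 14.52, a median of 15.38 and a highest of 16.79. The HFoleic livers had 14.29, 14.73 and 15.86, and the HFepa livers 13.68, 14.17 and 16.46. The 3 groups overlapped widely. The lowest 4 HFepa livers were below every reference liver, whereas HFepa replicate 4, the highest of its group, was exceeded by only 1 liver in the study, reference replicate 5.

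The log2 fold change of Apoa4 was -0.60 ± 0.33 (SE) in HFoleic vs. reference, with a 95% interval from -1.28 to 0.08 and an adjusted p of 0.312 by limma. In HFepa vs. reference it was -0.90 ± 0.34 (SE), with a 95% interval from -1.61 to -0.19 and an adjusted p of 0.234 by limma. The unadjusted p of the latter was 0.0148, and 4040 of all probes, 13.5%, had an unadjusted p under 0.05 in this comparison. Without reference replicate 5 the log2 fold changes were -0.43 and -0.73, and without HFepa replicate 4 the second was -1.22. These differences were not the same on all slides, but each slide mean of a group rests on only 2 or 3 livers. Slide 1 held reference replicate 5 (16.79), and slide 3 held HFepa replicate 4 (16.46). The HFoleic and HFepa means lay below the reference mean by log2 differences of -1.18 and -1.87 on slide 1 and of -0.92 and -0.97 on slide 2, but above it on slide 3, by 0.19 and 0.15.

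The spread of Apoa4 within groups was among the largest on the array. Its residual SD was 0.734 on the log2 scale, larger than that of 99.0% of the tested probes, for which the median was 0.184. The SD was 0.61 in reference, 0.56 in HFoleic and 1.01 in HFepa. Without the highest liver of each group it was 0.37 in reference (replicate 5), 0.42 in HFoleic (replicate 6) and 0.60 in HFepa (replicate 4). The SD thus fell in every group, and HFepa remained the widest. Intestine is the main other source of Apoa4 RNA, and of the enterocyte markers Vil1, Lct, Sis, Cdx2 and Fabp2 the first 4 did not pass the filter on dim probes. Only Fabp2 did, with log2 signals from 14.48 to 15.36 over the 24 livers. Of the 2 livers with the highest Apoa4, HFepa replicate 4 had the second highest Fabp2 of all livers (15.31), whereas reference replicate 5 was 21st of the 24 (14.65). The part of Fabp2 in the Apoa4 values was not tested.

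**Figure D2:**
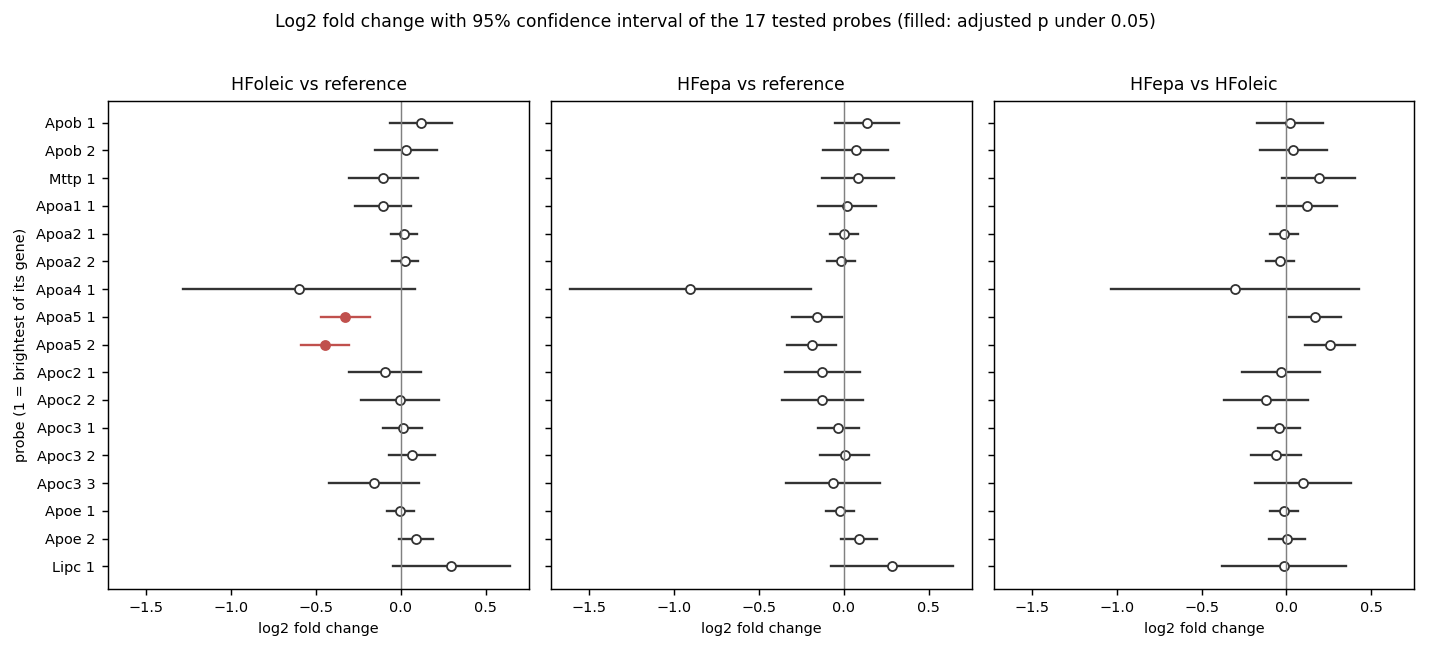
Log2 fold change with its 95% confidence interval for each of the 17 tested probes in the 3 comparisons, with probes of one gene numbered from the brightest. The 2 filled points, both Apoa5 in HFoleic vs. reference at -0.33 and -0.45, are the only ones with an adjusted p under 0.05, and the widest intervals are those of Apoa4.

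Across the 17 probes of the 10 genes, the median log2 fold change was 0.00 in HFoleic vs. reference, -0.02 in HFepa vs. reference and -0.01 in HFepa vs. HFoleic. The median size of the change without its sign was 0.10, 0.08 and 0.04 in this order, where over all tested probes it was 0.10, 0.08 and 0.08. In HFepa vs. reference none of the 17 was called, against 0.393% of all probes (0.19% higher and 0.203% lower). At an unadjusted p under 0.05, 2 of the 17 passed in HFoleic vs. reference (21.1% of all probes), 3 in HFepa vs. reference (13.5% of all) and 2 in HFepa vs. HFoleic (9.7% of all). These were the Apoa5 probes, joined in HFepa vs. reference by Apoa4. The 95% intervals of 14, 15 and 16 of the 17 probes lay within 0.5 log2 units of 0 on both sides in the same order.

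Of the genes of VLDL assembly proper, Apob was read by a pair of probes that followed each other from liver to liver (r = 0.90 over the 24 arrays after the group means were removed). On the brightest, at chr12:8012697-8012756 (mm9, transcript NM_009693), the reference livers ran from 15.55 to 16.12 with a median of 15.85. The HFoleic livers ran from 15.71 to 16.13 with a median of 16.00, and the HFepa livers from 15.77 to 16.23 with a median of 15.95. The groups overlapped almost completely. The log2 fold changes against reference were 0.12 (95% interval -0.06 to 0.30) in HFoleic and 0.14 (-0.05 to 0.33) in HFepa, with adjusted p-values of 0.484 and 0.551 by limma. The other Apob probe is mapped over 1615 bases of the genome although it is 60 bases long, so it joins separate stretches of the transcript, and it gave 0.03 and 0.07.

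Mttp had a probe for the transcript NM_001163457 at chr3:137753868-137753927 (mm9, minus strand) and another for ENSMUST00000197680. The latter was well above background on only 2 of the 24 arrays and was not tested. Its 60 bases were found whole in the RefSeq promoter window of Mttp (GRCm38.p6), on the strand of the gene, with 37 bases before the annotated start and 23 from the start on. The same bases also lie, on the opposite strand, in promoter windows of Trmt10a. The log2 median signal before normalization was 8.95 in reference replicate 5 and 6.26 in reference replicate 6, the 2 arrays above background. The sequence is shown with the bases from the Mttp start on in capitals, because it tells where this dim probe lies.
Mttp, dim probe at the start: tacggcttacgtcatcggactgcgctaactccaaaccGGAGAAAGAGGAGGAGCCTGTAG
Mttp, tested probe: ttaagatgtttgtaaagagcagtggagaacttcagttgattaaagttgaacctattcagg

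On the tested probe, Mttp ran from 11.73 to 12.68 in reference with a median of 12.38, from 12.04 to 12.40 in HFoleic with a median of 12.22, and from 12.13 to 12.61 in HFepa with a median of 12.46. The lowest value was that of reference replicate 5. HFoleic vs. reference gave a log2 fold change of -0.10 (95% interval -0.31 to 0.10), and -0.18 without that liver. HFepa vs. HFoleic gave 0.19 (95% interval -0.03 to 0.40, adjusted p = 0.579 by limma), and 4 of the 7 HFepa livers lay above every HFoleic liver. None of these passed the test.

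Among the apolipoproteins of HDL, Apoa1 was read by 1 probe at chr9:46037921-46037980 (mm9, plus strand, NM_009692). It ran from 15.66 to 16.19 in reference, from 15.64 to 16.13 in HFoleic and from 15.86 to 16.14 in HFepa, with medians of 15.99, 15.82 and 15.92. All 7 HFepa livers lay above the HFoleic mean. The log2 fold change was -0.10 in HFoleic vs. reference (95% interval -0.27 to 0.06), 0.02 in HFepa vs. reference (-0.15 to 0.19) and 0.12 in HFepa vs. HFoleic (-0.05 to 0.30), with adjusted p-values of 0.504, 0.956 and 0.664 by limma.

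Apoa2 and Apoe varied least. The brightest Apoa2 probe, at chr1:173156445-173156504 (mm9), ranged from 18.04 to 18.20 over all groups, and the brightest Apoe probe, at chr7:20281732-20281791, from 18.06 to 18.24. Their residual SDs, 0.049 and 0.051, were larger than those of only 0.083% and 0.097% of the tested probes. Both were among the brightest probes of every array, at ranks 8 to 18 and 7 to 17. Quantile normalization sets the values of the top ranks equal on all arrays. The scanner's processed signal, scaled to its 75th percentile, gave group SDs of 0.084 to 0.18 for Apoa2 and 0.096 to 0.15 for Apoe. These were wider than the 0.041 to 0.057 and 0.044 to 0.058 of the quantile-normalized median signal. Both the signal and the scaling differed, so the part of the normalization was not tested alone. None of the spots of the 10 genes held saturated pixels, and the brightest reached 30.8% to 42.9% of the saturation value of its array.

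The log2 fold changes of Apoa2 against reference were 0.02 in HFoleic (95% interval -0.06 to 0.09) and 0.00 in HFepa (-0.08 to 0.08). Those of the brightest Apoe probe were -0.01 (-0.08 to 0.07) and -0.02 (-0.10 to 0.06). These intervals hold for the quantile-normalized median signal, on which the SDs of these probes were narrower, as described above. The second Apoe probe, designed for the transcript NM_001305843, gave 0.09 in both HFoleic (95% interval -0.01 to 0.19) and HFepa (-0.02 to 0.19) vs. reference, with adjusted p-values of 0.318 and 0.467 by limma, and 7 of 7 HFepa and 7 of 8 HFoleic livers above the reference mean.

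The pair of Apoe probes is shown because they did not follow each other between livers, unlike the probe pairs of the other genes. Their r was -0.01 over the 24 arrays after the group means were removed. It was taken on the quantile-normalized scale, where the spread of the brightest probe was narrow. It therefore does not tell whether they read the same RNA. The first is mapped over 60 bases, whereas the second is mapped over only 50, at chr7:20281578-20281627.
Apoe, brightest probe: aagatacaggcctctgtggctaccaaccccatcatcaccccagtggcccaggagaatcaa
Apoe, second probe: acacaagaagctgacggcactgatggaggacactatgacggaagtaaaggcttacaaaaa

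Apoc2 and Apoc3, the activator of lipoprotein lipase and the apolipoprotein that restrains it, were not called in any comparison. Apoc2 ran from 16.19 to 17.05 in reference, from 16.03 to 16.61 in HFoleic and from 16.08 to 16.69 in HFepa, with medians of 16.36, 16.35 and 16.29. The highest values of reference and HFepa were those of reference replicate 5 and HFepa replicate 4, the livers with the highest Apoa4. The log2 fold change of Apoc2 was -0.10 in HFoleic vs. reference (95% interval -0.31 to 0.12) and -0.13 in HFepa vs. reference (-0.35 to 0.09), and -0.02 and -0.05 without reference replicate 5. Its other probe gave -0.01 and -0.13, and the pair correlated at r = 0.94 over the 24 arrays within groups.

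Apoc3 was read by 3 probes. The brightest, at chr9:46041134-46041193 (mm9, minus strand), ran from 17.25 to 17.59 in reference, from 17.31 to 17.59 in HFoleic and from 17.23 to 17.58 in HFepa. Its log2 fold changes against reference were 0.01 (95% interval -0.11 to 0.13) and -0.03 (-0.15 to 0.09). The groups were hardly apart. The second probe, 0.84 correlated with the first within groups, gave 0.07 and 0.01. The third, annotated to the transcript NM_001289756 at chr9:46043606-46043665, gave -0.16 and -0.06, and correlated with the brightest at r = 0.54. It was far dimmer, with mean log2 signals of 8.30 in reference, 8.14 in HFoleic and 8.24 in HFepa.

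Lipc, hepatic lipase, ran from 7.98 to 9.96 in reference with a median of 9.54, from 9.47 to 9.92 in HFoleic with a median of 9.72, and from 9.37 to 9.86 in HFepa with a median of 9.71. Reference replicate 5 was the lowest by far, the next reference liver being at 9.33. The log2 fold changes against reference were 0.30 (95% interval -0.05 to 0.64) in HFoleic and 0.28 (-0.07 to 0.64) in HFepa, with adjusted p-values of 0.320 and 0.507 by limma. Without that liver they were 0.12 and 0.11. The probe is mapped over 3677 bases of chromosome 9 (chr9:70660699-70664375, minus strand) and so joins separate stretches of the transcript.

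Apoa4 and Apoc2 varied together from liver to liver. Over the 24 arrays, after the group means were removed, Pearson's r was 0.76 and Spearman's rho 0.61, with r = 0.92 in reference, 0.69 in HFoleic and 0.76 in HFepa. It was 0.70 without reference replicate 5 and 0.56 without the 2 livers farthest from the median of Apoa4. This was the highest r among all pairs of the 10 genes. Lipc and Mttp followed at r = 0.61, which was 0.05 without reference replicate 5. Apob and Apoa5 had r = 0.60, with 0.81 in reference, 0.75 in HFoleic and 0.13 in HFepa, and 0.61 without that liver. Mttp and Apoa5 had r = 0.32, which was 0.62 without it, and Lipc and Apoc2 had r = -0.69, which was -0.34 without it. These values describe arrays that share slides, and no p-value is given for them.

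Of 19037 genes compared, the genes most like Apoa4 within groups were a long intergenic RNA probe of chromosome 19 without a gene symbol (r = 0.99) and Gm10680 (r = 0.97). The r of Gm10680 was 0.94 in reference, 0.96 in HFoleic and 0.99 in HFepa, and 0.94 without the 2 livers farthest from the median of Apoa4. The probes of Apoa4 and Gm10680 shared no run of more than 7 of their 60 bases on either strand. The strand specificity of the labelling was not tested, so signal from Apoa4 itself cannot be told apart from RNA of the opposite strand. Like Apoa4, Gm10680 had its highest values in reference replicate 5 (8.77) and HFepa replicate 4 (8.52). Its log2 fold changes against reference were -0.54 in HFoleic and -0.83 in HFepa, with adjusted p-values of 0.225 and 0.148 by limma.

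The genes most like Lipc were Cyp2c54 and Cyp2e1, cytochromes P450 of hepatocytes, both at r = 0.93. Without reference replicate 5 both correlations were 0.57. In that liver the Cyp2c54 log2 signal was 11.24, where the median of the reference livers was 15.14, and Cyp2e1 was lower than in every other liver, against a median of 17.93. On the log2 scale, the same liver had the highest summed signal of the stellate cell markers (15.56, next 14.83) and of the bile duct markers (9.95, next 8.81) of all 24 arrays. Their part in its Lipc, Mttp and Apoc2 values was not tested.

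For the other genes, the closest pair of each was the following, with r within groups. Apoa5 was closest to Bbs7 (0.79) and Snx8 (0.77), and Apob to Fam175b (0.83) and Nol8 (0.81). Mttp was closest to Gpatch2 (0.89) and 2310009B15Rik (0.88). Apoa1 was closest to AU040972 (0.88) and Lmx1b (0.88), Apoa2 to Ptp4a2 (0.78) and Pdik1l (0.71), Apoc3 to 2 transcripts without a gene symbol (0.85 and 0.84), and Apoc2 to Hs1bp3 (0.85) and Amdhd2 (0.84). Rdx was among the closest 2 of Apoe (0.75).

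**Figure D3:**
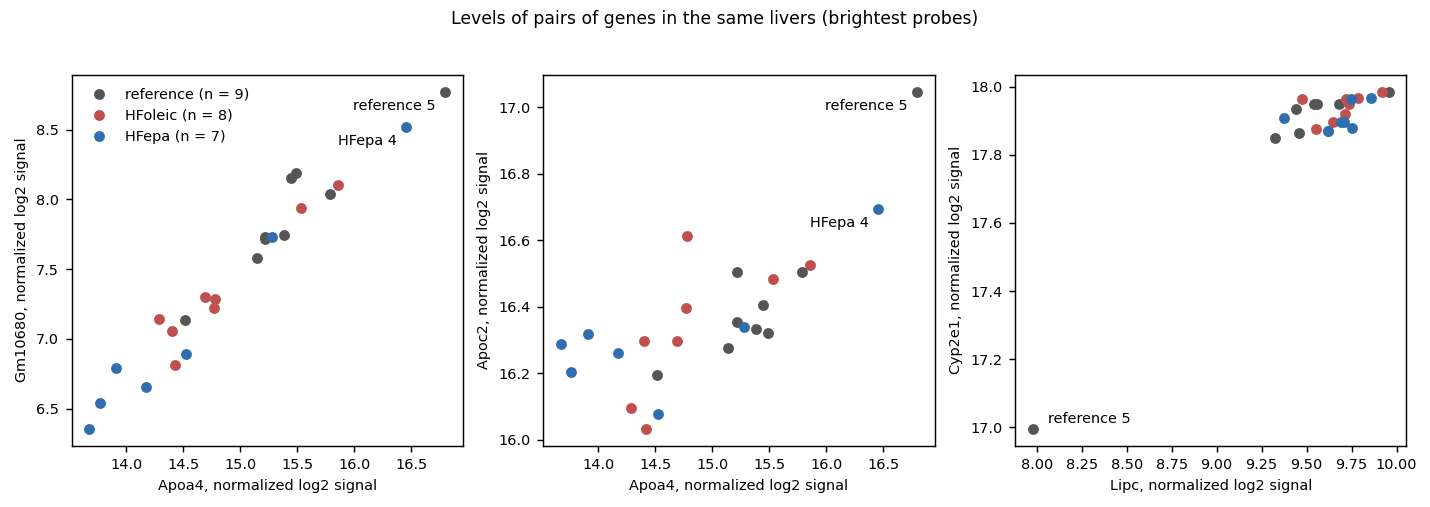
Normalized log2 signals of Apoa4 against Gm10680 and against Apoc2, and of Lipc against Cyp2e1, with each point 1 liver coloured by group. Reference replicate 5 and HFepa replicate 4 are at the upper end of Apoa4 (16.79 and 16.46), and reference replicate 5 stands alone at the lower end of Lipc (7.98).

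Apoa1, Apoc3, Apoa4 and Apoa5 lie side by side on chromosome 9, with their probes within 41.6 kb, and Apoc2 and Apoe lie within 24.8 kb on chromosome 7, with Apoc1 and Apoc4 between them. Along the chromosome 9 stretch and 50 kb to either side, 12 tested probes of 8 genes were found, of which 3 were called lower in HFoleic vs. reference, where 3.19% of all tested probes were: both Apoa5 probes and 1 of 2 probes of the neighbouring kinase gene Sik3 (-0.28, adjusted p = 0.00425 by limma). The stretch holds Apoa5, whose calls were already known, so its share of calls is no test of the stretch. Apoa1 and Apoc3 in the same stretch were at -0.10 and 0.01. Apoa4 and Gm10680, which lie between Apoc3 and Apoa5, were at -0.60 and -0.54 with wide intervals and were not called. Along the chromosome 7 stretch, 2 of 14 probes of 7 genes were called lower, against the same 3.19%. Both belonged to neighbours, Tomm40 (-0.25) and Pvrl2 (-0.39), whose other probes were not called, whereas Apoe and Apoc2 were at -0.01 and -0.10. No probe of either stretch was called in HFepa vs. reference. The calls in these stretches thus included 1 apolipoprotein gene, Apoa5.

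**Figure D4:**
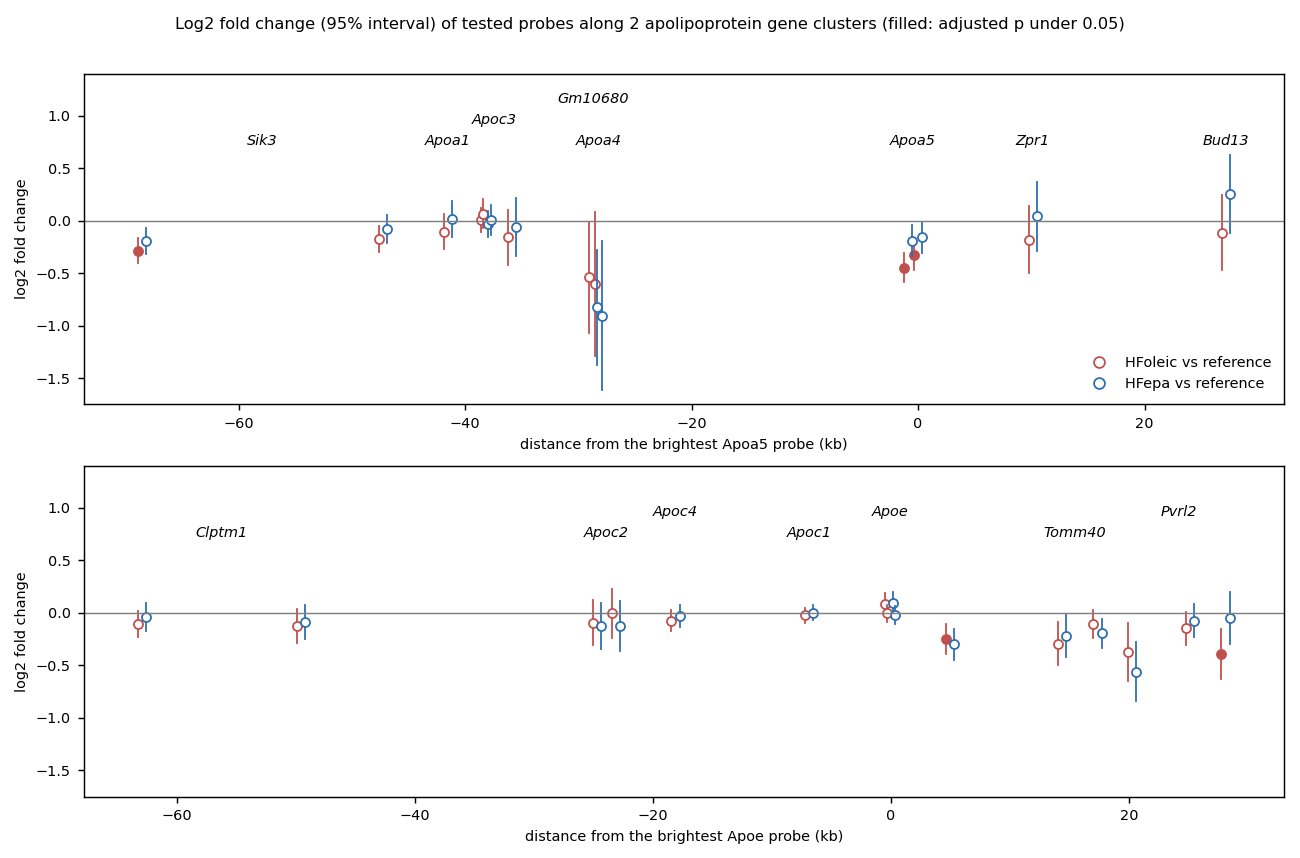
Log2 fold change with 95% confidence interval against distance in kb from the brightest Apoa5 probe (upper panel, chromosome 9) and the brightest Apoe probe (lower panel, chromosome 7), for all tested probes in each stretch. Filled points have an adjusted p under 0.05 and are found only in HFoleic vs. reference: Apoa5 (-0.33 and -0.45), Sik3, Tomm40 and Pvrl2.

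The partners of these genes were taken from 4 lists, by the brightest tested probe of each gene. Among 22 partners of VLDL assembly and secretion, 1 rose and none fell in HFoleic vs. reference, and the median log2 fold change was 0.04, where over all 20192 genes it was -0.01, with 913 called higher and 716 lower. The gene that rose was Sec23b, a coat protein of the vesicles that leave the endoplasmic reticulum, at 0.38 (adjusted p = 0.0195 by limma) on 1 of its 2 probes. Among 14 other lipoprotein components, 1 rose and none fell, with a median of 0.04. It was Saa4, a constitutive serum amyloid A of HDL, with a log2 fold change of 0.95 ± 0.18 (SE, adjusted p = 0.00238 by limma).

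Among 16 plasma lipases, their modulators and receptors, 4 rose and 2 fell in HFoleic vs. reference, with a median log2 fold change of 0.06. Of all 20192 genes, 913 were called higher and 716 lower, and of all tested probes 4.05% and 3.19%. The lipolysis-stimulated receptor Lsr rose by 0.30 on the log2 scale. Syndecan-1 (Sdc1), a heparan sulphate proteoglycan that binds remnants, fell by 0.75 on the log2 scale on its brightest probe, and all 3 of its probes were called. Also called, and added here after their values were seen, were the VLDL receptor Vldlr (0.83) and the lipoprotein lipase inhibitor Angptl4 (-0.44). Sdc1 was also the only gene of the 4 lists called in HFepa vs. reference, at -0.54 (adjusted p = 0.0282 by limma) on its brightest probe, with 2 of its 3 probes called.

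Among 16 transcription regulators of apolipoprotein genes, 2 rose and 1 fell in HFoleic vs. reference, with a median of 0.10. The shares over all tested probes were 4.05% higher and 3.19% lower. Srebf1, a regulator of lipid synthesis, rose by 1.02 ± 0.22 (SE) on the log2 scale. Xbp1, a regulator of the secretory pathway, rose by 0.68 ± 0.11 (SE) on its brightest probe, and all 3 of its probes were called. Ppargc1a, a coactivator of fasting genes, fell by 0.54 on the log2 scale on its brightest probe, and both of its probes were called. In the RT-qPCR that the paper reports, the rises of Srebf1 and Xbp1 were significant and the fall of Ppargc1a was not. No gene of the 4 lists was called in HFepa vs. HFoleic.

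Some genes that mark cell types were also called in HFoleic vs. reference, where 913 of all 20192 genes were called higher and 716 lower. Of the 5 hepatocyte markers, Cps1 and Tat were called lower, at -0.89 and -0.63, and the other 3, Alb, Ttr and Fgb, were not called. None of 6 Kupffer cell markers, 3 red blood cell markers or 3 tested adipocyte markers was called. The same held for 2 tested exocrine pancreas markers, 1 tested enterocyte marker and 1 tested skeletal muscle marker. Of 4 stellate cell markers, Lrat was called higher (0.56). Of 3 tested bile duct markers, Sox9 was called lower (-0.65), on 1 of its 2 probes. In HFepa vs. reference and HFepa vs. HFoleic no marker was called. The part of these markers in the values of Apoa5 was not tested.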

How the data were processed

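Livers of 24 mice were measured on 1-colour arrays with 60-base probes. The scanner intensities were deposited by the authors as made by Agilent Feature Extraction 10.10.1.1, per the file headers, with flags for outlier and saturated spots. A value table of 32176 probes, deposited by the authors as quantile-normalized log2 median signals, served only as an alternative. Each of its columns matched the log2 median signal of its array (lowest r 0.9997; column medians 7.82 to 7.83), and how its rows were filtered is not given in the sources used here. The counts of saturated pixels per spot were made by the same scanner software, per the file headers.

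From the scanner files, the log2 median signal was averaged over the spots of each probe without outlier spots. Probes flagged well above background in 75% or more of the livers of some group were kept and quantile normalized. A group-means model with 3 contrasts was fitted with limma 3.58.1 in R 4.3.3 (Benjamini-Hochberg, 5%), and checked on simulated data. The brightest tested probe stood for a gene. The genes, the lists and their rule (up to 4 called genes per list) and the tests were chosen with earlier results of these data known. Likeness was Pearson's r after removal of group means, for the 2 closest genes outside the 10. Some genes that these rules name are not reported here. The genes whose values are set beside Apoa4 and Lipc, the 50 kb flank and the sequence motifs were chosen after seeing the data. The arrays were separate mice of 1 series, and p-values measure the spread between these mice only. The number of arrays limits the precision.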

Additional observations from a re-analysis of the deposited data

Results flagged for a closer look

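In 3 of 30 groups of values tested (10 genes in 3 groups), the highest or lowest liver lay farther from its neighbour than Dixon's 95% limit allows, where chance alone gives about 1 group in 20. Apoc2 of reference replicate 5 was at a log2 signal of 17.05, with the next reference liver at 16.51. Apoc2 of HFepa replicate 4 was at 16.69, with the next HFepa liver at 16.34. Lipc of reference replicate 5 was at 7.98, with the next at 9.33. Of the 3, 2 came from reference replicate 5, and none concerned Apoa5.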

How the results depend on the processing

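The 2 Apoa5 probes called in HFoleic vs. reference, and the 0 probes of the 10 genes called in HFepa vs. reference and in HFepa vs. HFoleic, were also 2, 0 and 0 in 8 other settings and without each of the 24 arrays. Over the 8 settings (processed signal scaled to its 75th percentile, normexp, no filter, the authors' table, slide, slide row or replicate number as a block, the methods' t-test) the brightest Apoa5 probe stayed between -0.34 and -0.32 on the log2 scale, with adjusted p from 0.00421 to 0.0209. Calls over all probes in HFepa vs. reference were 60 with the processed signal, 0 without the filter and 0 with the methods' t-test, in place of 118. Leaving out arrays gave 0 (HFepa replicate 2) to 499 (reference replicate 8) calls in HFepa vs. reference, 0 to 15 in HFepa vs. HFoleic, and 1602 to 3097 in HFoleic vs. reference. The cause was not tested.

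Signs turned only for values near 0, none of them called. With the processed signal, Apoe in HFoleic vs. reference was 0.033 and Apoa1 in HFepa vs. reference -0.050. Apoa2 in HFepa vs. reference was -0.0058 under normexp and -0.0019 when the slide row was a block, which also gave 0.0037 for Lipc in HFepa vs. HFoleic. Leaving out arrays gave, in HFoleic vs. reference, -0.013 to 0.031 for Apoc3 and -0.016 to 0.0057 for Apoe. It gave, in HFepa vs. reference, -0.016 to 0.050 for Apoa1 and -0.0092 to 0.011 for Apoa2. In HFepa vs. HFoleic it gave -0.022 to 0.054 for Apob, -0.096 to 0.0067 for Apoc2 and -0.044 to 0.038 for Lipc.

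The replicate numbers were taken to name separate mice: same-numbered arrays of different groups correlated in their deviations at -0.30 to 0.35 (median 0.0018, 22 pairs), and 3 of 24 arrays correlated best with their own number. With the number as a replicate block, 1747, 104 and 0 probes were called in HFoleic and HFepa, each vs. reference, and in HFepa vs. HFoleic, in place of 2170, 118 and 0, and 2, 0 and 0 of the 10 genes' probes. Apoc3 in HFoleic vs. reference was then -0.0041, Apoa1 in HFepa vs. reference -0.027 and Lipc in HFepa vs. HFoleic 0.033.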
